A study of Mus musculus with 8 samples.

Results

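The nuclear genes of the mitochondrial respiratory chain were followed in sorted T cells of 2 nuclear-transfer mouse lines and of wild-type mice. They were taken by symbol: Nduf with the letter a, b, c, s or v and a number, Sdha to Sdhd, every Uqcr symbol, Cox4 to Cox8 with the letter a, b or c, and Atp5 with any letter. This gave 82 of the 24453 rows of the table, of which 37 belong by symbol to complex I, 4 to complex II, 8 to complex III, 16 to complex IV and 17 to complex V. Of these, 78 had values high enough to be tested.

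The respiratory chain is a set of protein complexes in the inner mitochondrial membrane. Complex I takes electrons from NADH and complex II takes them from succinate, complex III passes them on to cytochrome c, and complex IV delivers them to oxygen. Complexes I, III and IV pump protons, and complex V, the ATP synthase, makes ATP from the proton gradient. Regulatory T cells (Treg cells), which restrain immune responses, are known to use oxidative phosphorylation more than conventional effector T cells do. Some symbols differ from present assignments: Ndufa4 is counted as a complex IV component, Cox7a2l assembles supercomplexes, Atp5s (coupling factor B) is not an integral subunit of the ATP synthase, and Atp5sl is an assembly factor of complex I. The pattern leaves out Cox4i1, Cyc1 and Ndufab1, and no transcript encoded by mitochondrial DNA was analysed here.

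Cells were sorted as CD4-positive and Foxp3-positive, and their messenger RNA was sequenced from 3 T143, 2 T138 and 3 WT libraries. T143 and T138 are lines derived by nuclear transfer. T138 stands for naturally occurring Treg cells and T143 for Treg cells with signs of agonist-induced development, per the series description, and the comparison asks whether they are distinct subsets. Every library, WT included, is labelled NOD-Foxp3GFP-Rag1-/-, which denotes a non-obese diabetic background with a Foxp3 reporter and without Rag1, and untreated. The label is given as recorded, and it remains uncertain that WT animals truly lacked Rag1, which was not tested. Age is not stated in those sources, and nothing says whether the libraries of a group came from separate animals, so that p-values cover the spread of these libraries alone and that spread may be technical. By source name, T143 replicate 1 came from T138 and WT replicate 1 from T143. Both were kept with the group of their title.

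The libraries held 7.83 to 12.6 M reads in T143, 15.84 and 18.41 M in T138, and 14.64 to 22.64 M in WT. Foxp3 itself was at 3920, 6299 and 8694 in T143, against 41854 and 41161 in T138 and 29773, 36362 and 35360 in WT (normalised read counts). Of the T cell markers 9 of 10 were in the table and none was at 0, and they took 0.346 to 0.453% of signal in T143, against 0.79 and 0.801% in T138 and 0.731 to 0.826% in WT cells. The regulatory T cell genes Foxp3, Il2ra, Ctla4 and Ikzf2 were lower in T143 than in either group, while of the general T cell genes Cd247 was higher and Cd3d, Cd3e, Cd3g and Cd4 did not pass. Cd3d, for example, was at 11288, 6961 and 5243 in T143, against 3595 and 4002 in T138 and 6976, 2991 and 5394 in WT cells. The 12 neutrophil markers took 0.601, 1.02 and 3.7% in T143, against 0.157 and 0.028% in T138 and at most 0.00574% in WT, where 3 to 8 of the 12 were at 0. Dendritic cell and MHC class II markers took 0.0436 to 0.18% in T143, against 0.656 and 0.493% in T138 and at most 0.0109% in WT, and erythroid markers took 0.0164 to 0.0918% in T143, against 0.00754 and 0.0151% in T138 and at most 0.00347% in WT. Xist, expressed from the inactive X chromosome of females, was at 19143 to 24992 in T143, at most 2.95 in T138 and at most 130 in WT. The sex-linked Ddx3y was at most 1.27 in T143, at 3634 and 3175 in T138 and at 2094 to 3018 in WT. Sex and line thus cannot be told apart in the comparisons of T143 with T138 and with WT. The sorted fractions were bulk samples, in which fewer cells of a type and less RNA per cell cannot be told apart.

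Read counts per kilobase of transcript, averaged over the 8 libraries, placed members of the ATP synthase highest. Atp5b, the catalytic beta subunit, led with 5473 per kilobase, against 2.02 for Atp5g1, the lowest of complex V. The transcript length used for Atp5g1, 4715 bases, exceeds the span of its gene (chromosome 11, 96072793 to 96075694). Its value per kilobase is therefore doubtful. In complex III the range ran from Uqcrh, the hinge protein (3211), to Uqcrb (406), and in complex II from the flavoprotein Sdha (1464) to the membrane anchor Sdhc (332). Ndufa4 was the highest complex I symbol (1668) and its hypoxia-induced paralogue Ndufa4l2 the lowest, with a normalised read count of 2.55 in T143 replicate 2 and 0 in the other 7 libraries. Cox6b1 was the highest in complex IV (2239 per kilobase), and Cox7b2, Cox8b and Cox8c were at 0 in all 8 libraries, where 3 reads, the most that a count of 0 allows, correspond to a value of 2.07 to 5.97. Those limits cover counting error only.

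Complex IV transcripts were in the main those of widely expressed isoforms. Of the Cox6a pair, Cox6a1 was at 1763, 1568 and 1663 in T143, against 994 and 1143 in T138 and 1027, 795 and 1270 in WT. Its heart and muscle isoform Cox6a2 was at 7.96, 1.27 and 7.43 in T143, 0 in both T138 libraries and 5.51, 0 and 2.28 in WT, that is, near the limit of detection in every group. Cox7a1, another heart and muscle isoform, was at 2.48 to 3.98 in T143, 0 in both T138 libraries and 0 to 23.4 in WT cells. The testis isoform Cox6b2 was the exception, with 29.9, 120 and 157 in T143, against 43.3 and 48.3 in T138 and 20.7, 14.9 and 32.7 in WT. Its change did not pass against T138 (0.84 ± 0.77, adjusted p = 0.465) or against WT (1.89 ± 0.69, adjusted p = 0.0708).

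Members that share sequence with other genes ranged from near 0 to over 1000 normalised reads. Of the 3 genes for the same proteolipid of the ATP synthase ring, Atp5g3 had 1137 to 3534 normalised reads, while Atp5g2 had 0 to 69.9 and Atp5g1 at most 21.7. Of all 50-base stretches of their transcripts, 87.4% in Atp5g2, 84.8% in Atp5l, 53% in Cox7c, 41.2% in Ndufs5 and 11.6% in Atp5g1 also occur in transcripts of other genes, against 0% in Atp5g3. The figure for Atp5g1 rests on the same transcript of doubtful length. Atp5l was at 0 to 77, Cox7c at 0 to 35.4 and Ndufs5 at 0 to 12.4. Sharing did not always go with low values, since Ndufa12 (53.8% shared) was at 90.2 to 145, Atp5h (50.5%) at 358 to 768 and Atp5o (50.3%) at 584 to 1664. The sources used here do not state how reads with several matches were counted, so the levels of these members are uncertain.

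The promoters of the members were searched for motifs of factors known to control respiratory chain genes. RefSeq promoter sequences (GRCm38.p6, 250 bases before to 50 bases after the start site) were found for 69 of the 82 members, with 75 promoters. The NRF1 motif CGCANGCGC was in 34.7% of them, against 11.7% of the 15258 promoters of tested genes. The motif CCGGAAG, bound by ETS factors such as GABP, was in 21.3% against 15.5%, and the YY1 motif AAGATGGCG in 12.0% against 2.56%. The GC box GGGCGG went the other way (38.7% against 58.4%), and CCAAT was in 42.7% against 37.4%. The ERR motif TCAAGGTCA was in 2.67% against 0.262%, which rests on only 2 of the 75 promoters of members. Each motif was searched on both strands, and a match is a description of the letters. In the stretches shown NRF1 and ETS motifs do not overlap each other. The 120 bases before the start site follow, 5′ to 3′ on the gene's strand, for 1 member of each complex that was higher in T143 in at least 1 comparison below and has a motif there outside the annotated gene; capitals mark NRF1 and ETS motifs on either strand.
Ndufa11 (complex I, chr17:56717642-56717761, + strand, NRF1 motif beginning 60 bases before the start site): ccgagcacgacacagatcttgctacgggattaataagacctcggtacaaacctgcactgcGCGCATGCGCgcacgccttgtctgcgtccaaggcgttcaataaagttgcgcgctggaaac
Sdhd (complex II, chr9:50603850-50603969, - strand, NRF1 at 78 and ETS at 46 bases before the start site): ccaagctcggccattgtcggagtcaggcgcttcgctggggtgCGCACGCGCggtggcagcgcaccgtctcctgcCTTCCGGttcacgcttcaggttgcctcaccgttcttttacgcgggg
Uqcr11 (complex III, chr10:80406822-80406941, - strand, ETS at 66 bases): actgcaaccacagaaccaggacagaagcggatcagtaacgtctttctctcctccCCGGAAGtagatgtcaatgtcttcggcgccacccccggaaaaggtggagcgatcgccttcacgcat
Cox6a1 (complex IV, chr5:115348959-115349078, - strand, NRF1 at 116 and ETS at 16 bases): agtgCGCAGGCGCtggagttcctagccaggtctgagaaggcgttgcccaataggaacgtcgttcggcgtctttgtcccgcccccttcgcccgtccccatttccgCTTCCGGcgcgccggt
Atp5e (complex V, chr2:174464102-174464221, - strand, ETS at 102 bases): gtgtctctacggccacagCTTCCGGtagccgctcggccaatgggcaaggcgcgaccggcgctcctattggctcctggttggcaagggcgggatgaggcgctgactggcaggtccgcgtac

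As a share of all signal, the 82 members made up more of the T143 libraries than of any other. Their share was 0.778, 0.676 and 0.680% in T143, against 0.455 and 0.424% in T138 and 0.577, 0.358 and 0.532% in WT cells. The T143 libraries did not overlap those of T138 or WT. Complex V alone took 0.323, 0.279 and 0.273% in T143, against 0.166 and 0.151% in T138 and 0.227, 0.139 and 0.216% in WT. Complex II moved least, with 0.0604, 0.0569 and 0.0554% in T143, against 0.0479 and 0.0455% in T138 and 0.0516, 0.0429 and 0.0531% in WT.

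**Figure D1:**
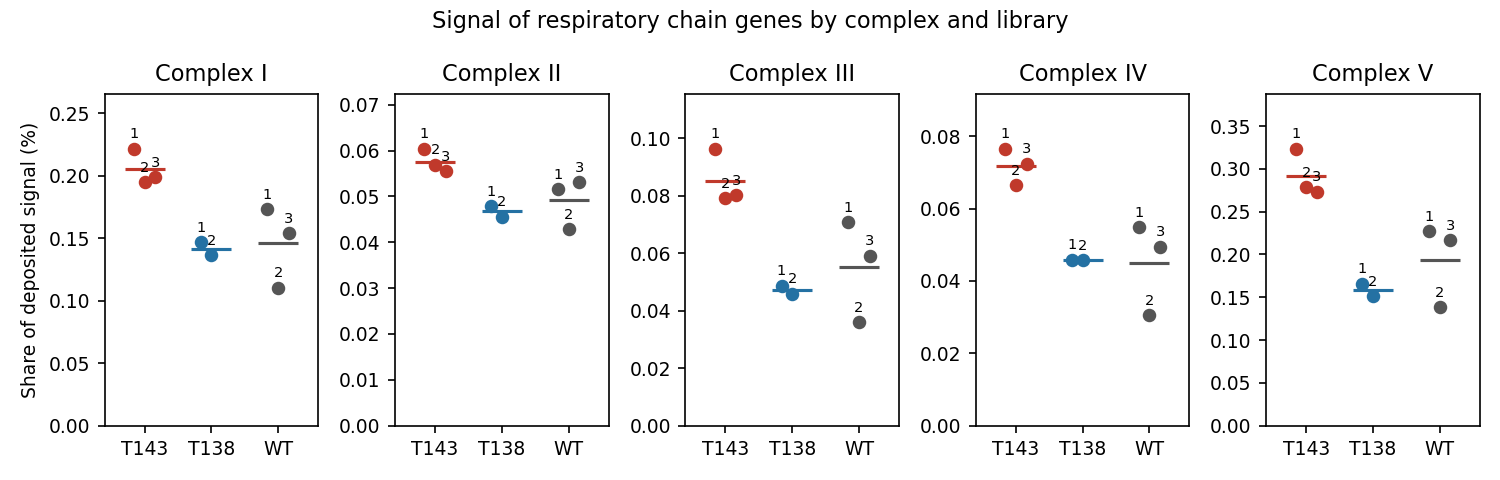
Share of the deposited signal (%, linear axes from 0) taken by the members of each complex, with 1 point per library labelled by its replicate number and a bar at the group mean. Every T143 library lies above every T138 and WT library in each of the 5 panels, and WT replicate 2 is the lowest of all 8 in each.

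T143 against T138 asked how the 2 nuclear-transfer lines differ. In T143, 25 of the 78 tested members (32.1%) were higher and 0 were lower, against 10.8% of all 15547 tested genes that were higher, 10.2% that were lower and 21.0% called in either direction (limma on log2(value + 1), Benjamini-Hochberg adjusted p under 0.05 over all genes, 2-sided). The median log2 change of the members was 0.68 and that of all genes tested 0.152, and 71 of 78 members were above 0. In 57 members (73.1%) every T143 library was above both T138 libraries, against 28.0% of all genes, and in 3 every T143 library was below, against 23.7% of all genes. Complex III had the highest share of calls, with 5 of 8 members and a median of 1.06, followed by complex V (7 of 17, 0.74), complex I (9 of 36, 0.64), complex II (1 of 4, 0.42) and complex IV (3 of 13, 0.70). The differences between complexes were not tested.

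The number of calls between the lines rested on single libraries, the median change less so. It was 4 without T138 replicate 2 (5.13%, against 4.26% of all genes higher) and 5 without T138 replicate 1 and T143 replicate 3, the libraries with most neutrophil transcripts of their groups (6.41%, against 5.92%). It was 14 (17.9%) without T138 replicate 1, without T143 replicate 1 or without T143 replicate 3, against 7.22, 9.59 and 8.84% of all genes higher. It was 13 without T143 replicate 2 (16.7%, against 5.65%) and 39 of 78 without WT replicate 2 (against 12.7% of all genes), which enters through the shared spread. The median change of the members stayed between 0.62 and 0.73 in these 7 fits. With the level of the neutrophil markers as a covariate 13 members were higher, with a median of 1.10 (16.7%, against 2.64% of all genes higher). The calls over all genes dropped to 1005. That level, a mean of log2 values, was 11.75 to 14.47 in T143, 9.82 and 7.79 in T138 and 1.04 to 3.38 in WT. The groups did not overlap in it, so that the fit can hardly separate covariate and group, and its medians are extrapolations.

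T143 against WT gave a like count. In T143, 27 of the 78 members were higher and 1 was lower (35.9% called, against 23.8% of all genes; 11.7% of all genes were higher and 12.1% lower), with a median of 0.64 for the members and 0.053 for all genes. In 49 members (62.8%) every T143 library was above every WT library, against 20.0% of all genes, and in 2 below, against 20.7%. By complex, 8 of 36 members of complex I were higher (median 0.59), 1 of 4 of complex II (0.31), 4 of 8 of complex III (0.89), 6 of 13 of complex IV (0.71) and 8 of 17 of complex V (0.63), where the lower member also lies. This comparison shares its T143 libraries with the one against T138.

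WT replicate 2 stood apart from the other WT libraries in these genes. It was the lowest of all 8 libraries for 51 of the 78 members and the lowest of WT for 69. Without it 14 members were called against WT, all higher, with a median of 0.39 (17.9%, against 17.8% of all genes called and 8.78% higher). The count was 13 without T143 replicate 1 (16.7%, against 21.0% of all genes called and 11.2% higher) and 14 without T143 replicate 2 (17.9%, against 16.3 and 6.98%). It was 15 without T143 replicate 3 (19.2%, against 19.2 and 8.78%) and 17 without WT replicate 3 (21.8%, against 17.4 and 8.67%). Without T138 replicate 1 and T143 replicate 3 it was 4, all higher (5.13%), which is below the 7.61% of all genes that were higher and the 17.3% called in that fit, with a median of 0.65 for the members. With the neutrophil marker level as a covariate no member was called by limma and 6 of all 15547 genes were. The median of the members was 1.52 in that fit, 70 of 78 were above 0, and 27 (34.6%) had an unadjusted p under 0.05, against 13.2% of all genes. The level of the neutrophil markers was above every WT library in all T143 libraries, so that this fit can hardly separate it from the group. The part of these markers in the result was not tested.

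T138 against WT gave 0 calls among the 78 members by limma, against 11.0% of all genes called (5.74% higher and 5.3% lower). At an unadjusted p under 0.05 there were 4 members (5.13%, against 24.3% of all genes). On the recovered reads edgeR and limma-voom called 0 members, against 8.22 and 11.3% of all genes. DESeq2 called 2 (2.56%, against 14.6% of all genes). The median of the members was -0.05 and that of all genes -0.065. In 3 members (3.85%) both T138 libraries were above every WT library, against 17.7% of all genes, and in 4 (5.13%) below, against 19.8%. Without WT replicate 2, 7 members were lower and 0 higher, with a median of -0.24. The share called was 8.97%, against 8.58% of all genes called and 3.93% lower. An unadjusted p under 0.05 was found in 24.4% of members and 24.0% of all genes in that fit. The 7 lower members were Atp5g3, Atp5j, Atp5b, Atp5o, Ndufb5, Ndufa9 and Ndufs8, with log2 changes from -0.60 for Atp5b to -0.75 for Ndufs8. Without WT replicate 1 there were 2 calls (2.56%, against 8.92% of all genes), with a median of 0.11 and 49 of 78 members above 0. Without WT replicate 3 there was 1 call (1.28%, against 7.17%), with a median of 0.00. The direction of the median thus depended on which WT library was left out. With the neutrophil covariate limma gave 0 calls among members and all genes alike. In that fit 7 members had an unadjusted p under 0.05 (8.97%, against 13.4% of all genes). The median was 0.53 there, with 68 of 78 above 0, which is an extrapolation, since the covariate did not overlap between the groups.

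**Figure D2:**
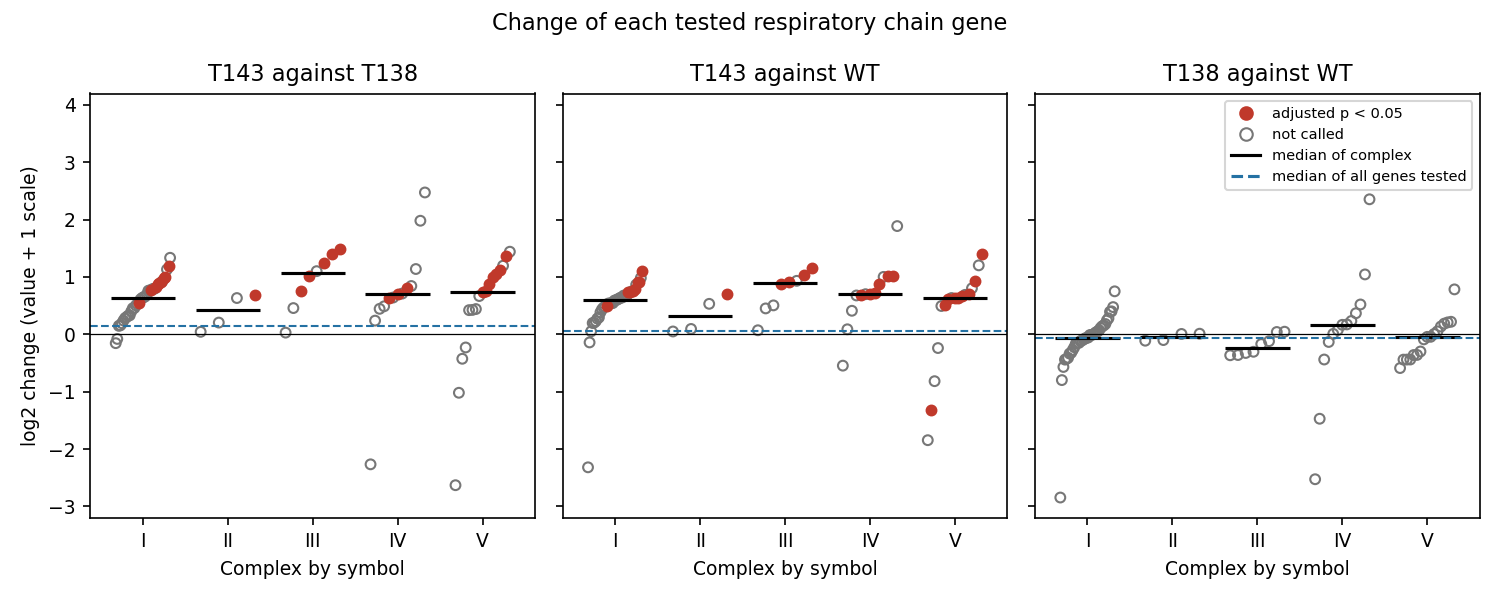
Change of each tested member (log2 scale of value + 1) by complex in the 3 comparisons, ordered by size within a complex; filled points have an adjusted p under 0.05. The medians of all 5 complexes lie above that of all genes in both T143 comparisons, while no point is filled for T138 against WT.

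In complex I by symbol, 29 tested members lie outside the core, Ndufa4 included, and 7 of these 29 were called against T138 and 8 against WT. Of the 7 core subunits 2 were called against T138 and 0 against WT. Ndufa9, an accessory subunit of the peripheral arm (chromosome 6, 126821863 to 126849144, GRCm38), was at 1469, 1352 and 1178 in T143, against 635 and 688 in T138 and 1059, 859 and 1038 in WT cells. The T143 values were above all others and the T138 values below all others. It rose in T143 against T138 by 1.00 ± 0.17 (log2 change ± SE, adjusted p = 0.00291), while against WT its change of 0.43 ± 0.15 did not pass (adjusted p = 0.0633). Ndufb8, an accessory subunit of the membrane arm, was at 1154, 1077 and 1207 in T143, against 650 and 572 in T138 and 855, 512 and 660 in WT. It rose against T138 (0.91 ± 0.22, adjusted p = 0.0148) and against WT (0.79 ± 0.19, adjusted p = 0.0144).

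Ndufa10 and Ndufb5, further accessory subunits, also rose against both groups. Ndufa10 was at 1487, 1177 and 1204 in T143, against 710 and 738 in T138 and 1025, 792 and 914 in WT. Its changes were 0.82 ± 0.18 against T138 and 0.50 ± 0.16 against WT. Ndufb5 changed by 1.19 ± 0.27 and 0.76 ± 0.24. Against WT the smallest p among complex I members was that of Ndufc2, with 720, 657 and 746 in T143, against 456 and 376 in T138 and 431, 335 and 366 in WT (0.91 ± 0.18, adjusted p = 0.0056). Its 3 WT values and 2 T138 values overlap. Ndufa2 (1.11 ± 0.31) and Ndufv3 (0.73 ± 0.21) rose against WT. Their changes of 0.63 ± 0.35 and 0.33 ± 0.24 against T138 did not pass, and whether the changes against the other groups differ was not tested.

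The core of complex I, which holds the flavin and the iron-sulphur clusters, had smaller median changes than the other complex I symbols. The medians of its 7 nuclear members were 0.16 against T138 and 0.20 against WT, and those of the 29 other tested members 0.69 and 0.64. The difference between core and other members was not tested. Ndufs1, the largest core subunit, was at 1781, 1953 and 1809 in T143, against 1680 and 1632 in T138 and 1977, 1765 and 1620 in WT, with changes of 0.16 ± 0.14 (adjusted p = 0.465) and 0.05 ± 0.13 (adjusted p = 0.81). Ndufv1, which binds NADH, changed by 0.19 ± 0.18 and 0.20 ± 0.17, and Ndufs3 by -0.08 ± 0.30 and -0.14 ± 0.27. Ndufs8, which carries iron-sulphur clusters, was among those that rose against T138 (0.98 ± 0.28, adjusted p = 0.031). Ndufs7, which also carries a cluster, had 941, 823 and 722 in T143, against 859 and 979 in T138 and 699, 407 and 569 in WT, and passed in no comparison.

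In complex II 1 of the 4 members passed, a membrane anchor. Sdhd, a membrane anchor that helps to bind ubiquinone (chromosome 9, 50596340 to 50603849), was at 1534, 1502 and 1710 in T143, against 1101 and 867 in T138 and 1154, 784 and 1008 in WT. All T143 values were above the others, and it rose against T138 (0.69 ± 0.19, adjusted p = 0.0295) and WT (0.70 ± 0.17, adjusted p = 0.015). The other anchor, Sdhc, was at 1425, 1297 and 1208 in T143, against 699 and 1016 in T138 and 951, 672 and 1154 in WT. Its changes of 0.63 ± 0.24 and 0.53 ± 0.22 did not pass. The catalytic flavoprotein Sdha was at 4949, 4583 and 3975 in T143, against 4268 and 3548 in T138 and 3990, 3982 and 4668 in WT, and the groups overlap. Sdhb, the iron-sulphur subunit, changed by 0.04 ± 0.20 against T138 and 0.05 ± 0.18 against WT.

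Complex III held the member with the smallest adjusted p against T138. Uqcrfs1, the Rieske iron-sulphur protein that passes electrons toward cytochrome c (chromosome 13, 30540312 to 30545316), was at 1893, 1626 and 1618 in T143, against 680 and 767 in T138 and 1054, 721 and 1059 in WT. Every T143 value exceeded every other. It rose by 1.24 ± 0.20 against T138 (adjusted p = 0.00211) and by 0.88 ± 0.18 against WT (adjusted p = 0.00563). Small subunits rose too. Uqcr10 was at 1053, 837 and 858 in T143, against 377 and 316 in T138 and 638, 277 and 493 in WT. Its changes were 1.40 ± 0.31 and 1.04 ± 0.28.

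Uqcr11, a small subunit whose promoter is shown above, was at 414, 445 and 511 in T143, against 171 and 153 in T138 and 348, 108 and 223 in WT, and rose by 1.48 ± 0.42 against T138 and 1.16 ± 0.38 against WT. Uqcrq rose by 1.03 ± 0.31 and 0.91 ± 0.28. Of the core proteins that scaffold the complex, Uqcrc2 rose against T138 (0.76 ± 0.24, adjusted p = 0.0484) but not past the threshold against WT (0.45 ± 0.22, adjusted p = 0.161). Uqcrc1 passed in neither, at 0.46 ± 0.23 and 0.51 ± 0.21. Uqcrh had 3101, 2191 and 2135 in T143, against 912 and 1413 in T138 and 2272, 678 and 1350 in WT, where the T143 and WT values overlap, and did not pass. Uqcrb, with 43.4% of its 50-base stretches shared with other genes, changed by 0.03 ± 0.35 and 0.07 ± 0.31.

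In complex IV, Cox6c had the smallest p against T138. It was at 834, 780 and 827 in T143, against 445 and 482 in T138 and 585, 440 and 509 in WT, and rose by 0.81 ± 0.19 (adjusted p = 0.0133) and, against WT, by 0.68 ± 0.17 (adjusted p = 0.0156). Cox5a, a subunit on the matrix side, and Cox6a1 rose against both groups, by 0.70 ± 0.19 and 0.71 ± 0.17 for Cox5a and by 0.64 ± 0.20 and 0.72 ± 0.18 for Cox6a1. Against WT the smallest adjusted p was that of Cox8a, a small subunit that spans the membrane, at 959, 938 and 1137 in T143, against 749 and 687 in T138 and 422, 405 and 730 in WT. It rose against WT (1.01 ± 0.23, adjusted p = 0.00969), and its change of 0.49 ± 0.25 against T138 did not pass (adjusted p = 0.196).

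Cox7a2, the widely expressed Cox7a isoform, was at 1327, 1115 and 1252 in T143, against 662 and 849 in T138 and 862, 491 and 705 in WT. It rose against WT (0.88 ± 0.21) and missed the threshold against T138 (0.71 ± 0.24, adjusted p = 0.0562). Cox7a2l, the supercomplex assembly factor, varied within groups, at 2579, 1563 and 1475 in T143, against 874 and 773 in T138 and 2072, 544 and 1227 in WT, and passed in neither comparison. Cox5b rose against WT (1.01 ± 0.28, adjusted p = 0.0229). Cox6b1 changed by 0.45 ± 0.29 and 0.68 ± 0.26 and Cox7b, on the X chromosome, by 0.24 ± 0.30 and 0.41 ± 0.27, and neither passed. Ndufa4, a complex IV component in spite of its symbol, changed by 0.77 ± 0.28 (adjusted p = 0.0776) and 0.68 ± 0.25 (adjusted p = 0.0767).

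In complex V, Atp5g3, which encodes the proteolipid of the membrane ring (chromosome 2, 73908447 to 73912464), was at 3534, 2912 and 2980 in T143, against 1261 and 1170 in T138 and 2061, 1137 and 1911 in WT. All T143 values were above the others. It rose by 1.36 ± 0.23 against T138 (adjusted p = 0.00296) and by 0.93 ± 0.21 against WT (adjusted p = 0.00986). Of the catalytic F1 head, Atp5b (chromosome 10, 128083307 to 128090388) was at 15113, 13583 and 13342 in T143, against 7516 and 6562 in T138 and 10882, 6456 and 10436 in WT. It rose by 0.99 ± 0.21 (adjusted p = 0.00918) and 0.63 ± 0.19 (adjusted p = 0.0346). Its partner Atp5a1, the alpha subunit, rose by 0.88 ± 0.19 and 0.52 ± 0.17.

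Of the other F1 subunits, the gamma subunit Atp5c1 rose by 0.75 ± 0.24 against T138 and 0.66 ± 0.21 against WT. The epsilon subunit Atp5e, whose promoter is shown above, was at 2547, 1970 and 1968 in T143, against 781 and 798 in T138 and 1598, 369 and 915 in WT. It rose against WT (1.40 ± 0.43, adjusted p = 0.0417), while its change of 1.44 ± 0.48 against T138 missed the threshold (adjusted p = 0.0601). The delta subunit Atp5d passed in neither, at 0.44 ± 0.23 and 0.49 ± 0.20. Of the stalk, Atp5j (coupling factor 6) rose by 1.06 ± 0.20 and 0.62 ± 0.18, and the b subunit Atp5f1 by 0.74 ± 0.17 and 0.70 ± 0.15, the last with an adjusted p of 0.00839.

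Atp5s was the 1 member called lower. Coupling factor B was at 45.8, 98.0 and 82.9 in T143, against 145 and 149 in T138 and 141, 240 and 176 in WT (chromosome 12, 69724913 to 69744665). All T143 values were below the others. It was lower in T143 than in WT (-1.32 ± 0.39, adjusted p = 0.033), and its change of -1.02 ± 0.44 against T138 did not pass (adjusted p = 0.122). Other members had every T143 library below the other group without passing. Cox7c was at 3.98, 8.91 and 4.95 in T143, against 35.4 and 27.1 in T138, and Ndufs5 at 1.99, 0 and 0 in T143, against 12.4, 7.45 and 2.28 in WT. Atp5sl, the assembly factor of complex I, changed by -0.43 ± 0.21 against T138, where its groups did not overlap either, and by -0.24 ± 0.19 against WT.

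**Figure D3:**
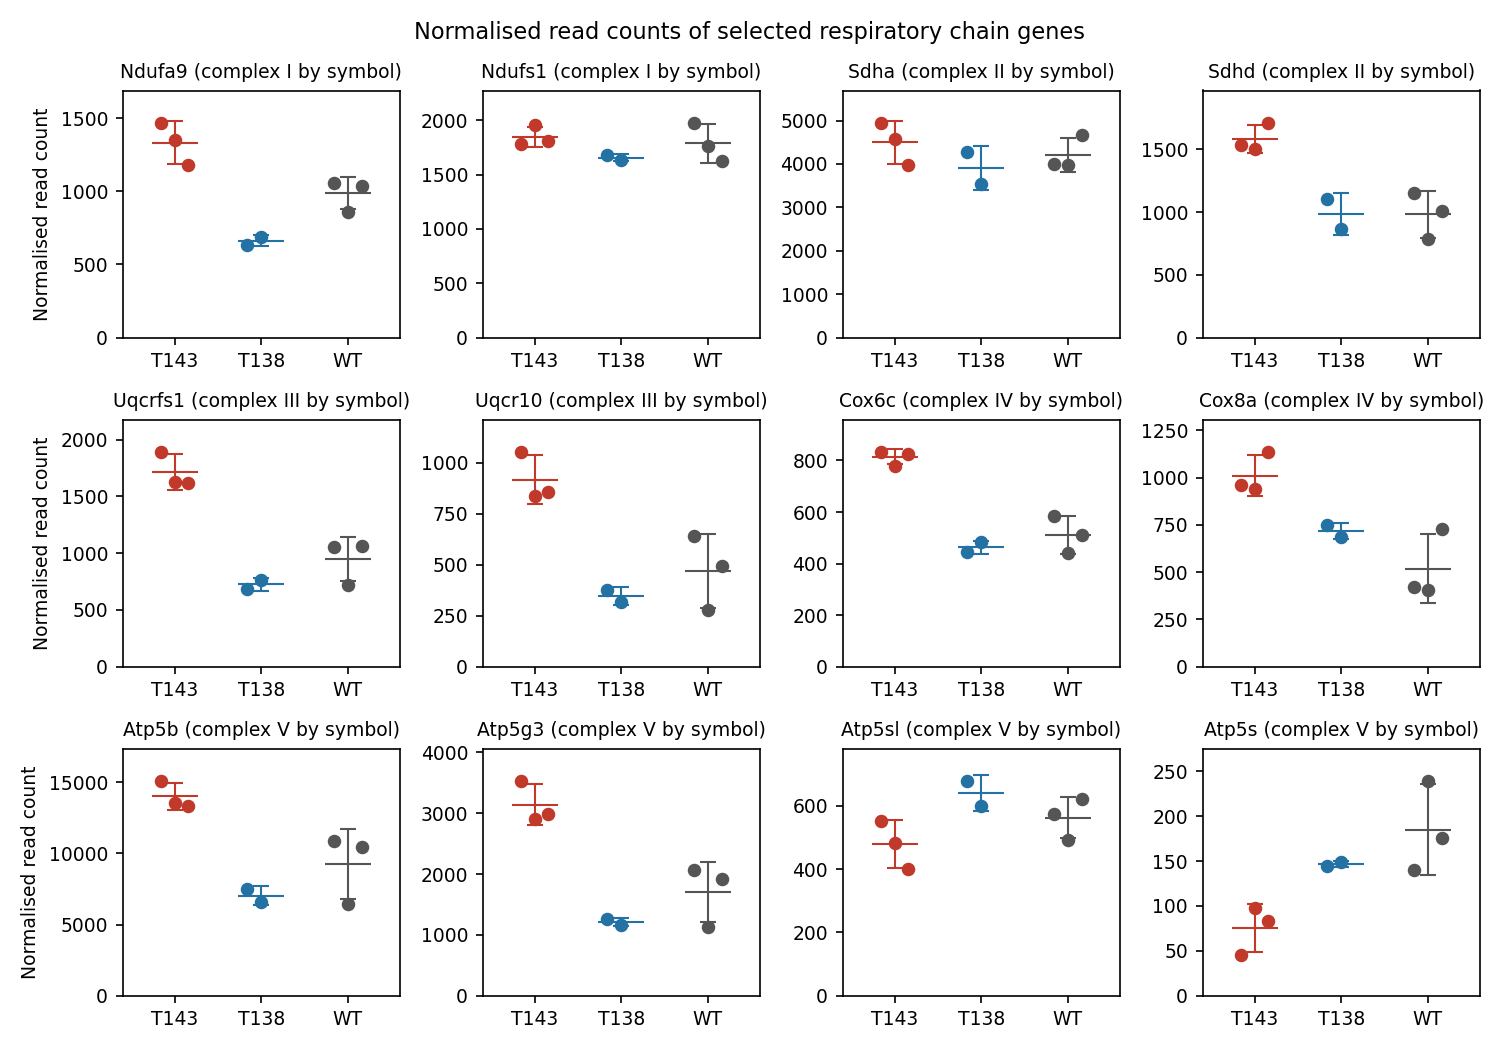
Normalised read counts (linear axes from 0) of 12 members, with 1 point per library in order of replicate and the group mean with 1 SD (T143 n = 3, T138 n = 2, WT n = 3). Uqcrfs1, Atp5b and Atp5g3 have every T143 library above all others, Ndufs1 and Sdha overlap, and Atp5s has every T143 library below all others.

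Short transcripts other than the members also differed between the libraries. The 1480 other tested genes with transcripts of up to 1000 bases took 5.25, 4.66 and 6.86% of signal in T143, against 3.69 and 3.32% in T138 and 3.53, 2.06 and 3.11% in WT. Neutrophil genes of that length were not left out of this sum. The 12 neutrophil markers, whatever their length, took 0.601, 1.02 and 3.7% of signal in T143, against 0.157 and 0.028% in T138. Their part in the sum was not tested. Members are mostly short: 17 of the 78 tested have a transcript of over 1500 bases, among them Atp5g1 by its doubtful length. Among genes with a mean value of at least 100 and transcripts of up to 600 bases, the median change against T138 was 0.66 for the 19 members and 0.665 for 109 others. Between 600 and 1000 bases it was 0.76 for 23 members and 0.346 for 413 others, between 1000 and 1500 bases 0.69 for 11 members and 0.115 for 910 others, and between 1500 and 2000 bases 0.50 for 10 members and 0.061 for 1178 others. Against WT these medians were, in the same order, 0.68 and 0.855, 0.68 and 0.473, 0.48 and 0.188, and 0.57 and 0.077. At this level members thus lay no higher than other genes of their length in the shortest class and higher in the 3 following ones. Between 2000 and 3000 bases the medians of 5 members were smaller, 0.205 against T138 and 0.094 against WT. Those of 2356 others were 0.003 and -0.028. The 1 member between 3000 and 5000 bases changed by 0.633 and 0.532. Over all tested genes, low ones included, the median in the shortest class was 0.65 for 24 members and 0.484 for 587 others against T138, and 0.64 and 0.075 against WT. Length and change had a Spearman correlation of -0.148 over the 78 members, Atp5g1 included, against T138 and -0.241 against WT.

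**Figure D4:**
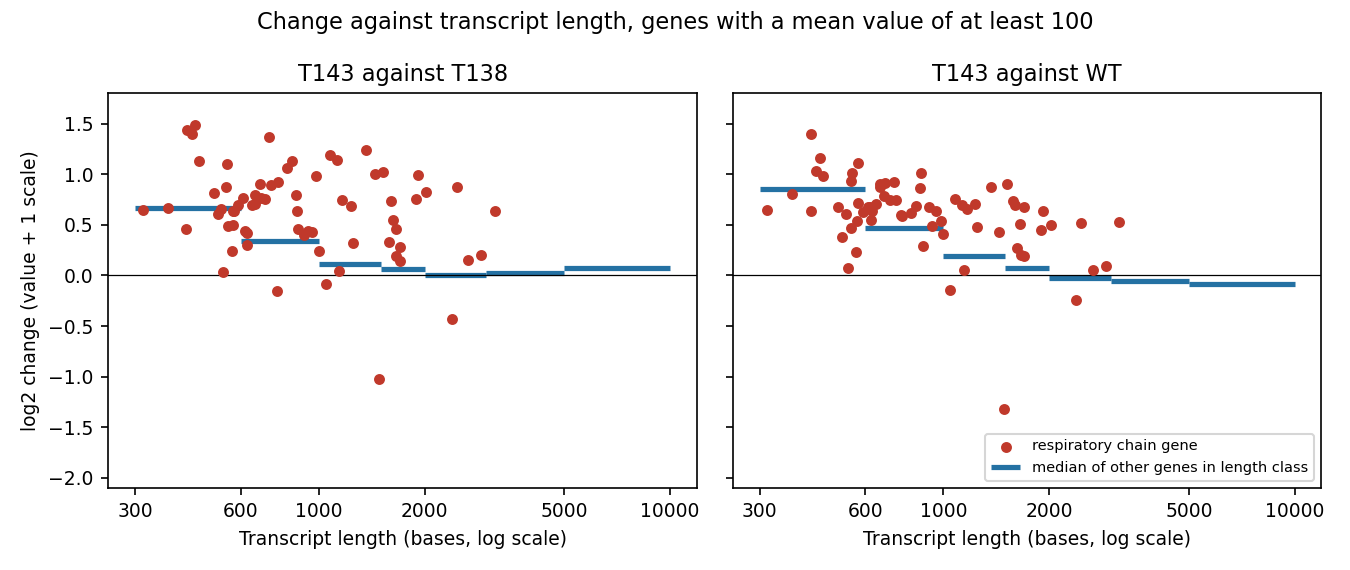
Change (log2 scale of value + 1) of members with a mean value of at least 100 against transcript length (log axis), with the median of all other such genes in each length class as a bar. The bars fall toward 0 with length, from 0.665 in the shortest class to 0.003 between 2000 and 3000 bases for T143 against T138, while members between 1000 and 2000 bases lie mostly above them.

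The library that stood apart did so in short transcripts at large. The median log2 deviation of the members from their mean over all libraries was 0.53, 0.34 and 0.38 in T143, against -0.19 and -0.30 in T138 and 0.09, -0.65 and -0.05 in WT. For the 522 of the other short transcripts with a mean value of at least 100 it was 0.41, 0.24 and 0.22 in T143, against -0.01 and -0.10 in T138 and 0.10, -0.66 and -0.07 in WT. Over all tested genes it stayed between -0.10 and 0.10. The part of transcript length in the results was not tested.

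**Figure D5:**
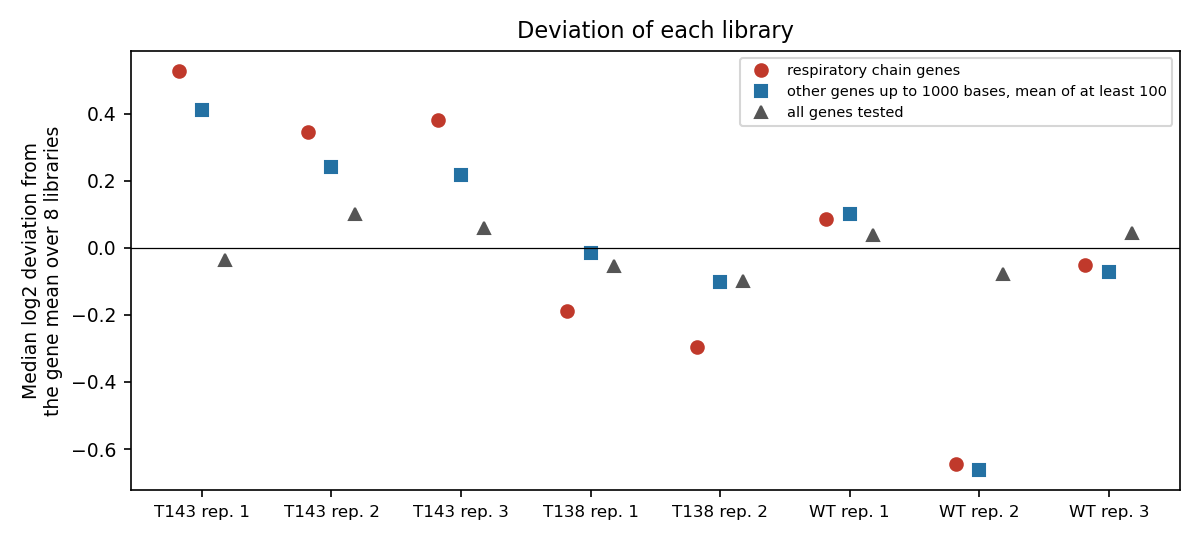
Median log2 deviation of each library from the gene means over the 8 libraries, for the 78 members, for 522 other genes with transcripts of up to 1000 bases and a mean value of at least 100, and for all genes tested. The T143 libraries are above 0 for members and short transcripts alike, and WT replicate 2 lies near -0.65 for both.

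Genes that work beside the chain were described by lists chosen with earlier results of these data known. Of other subunits and partners outside the symbol pattern, 0 of 6 were called against T138 and 1 against WT, Atpif1, the inhibitor of ATP hydrolysis (1.18 ± 0.31, adjusted p = 0.0195). Cox4i1, the main isoform of the largest nuclear subunit of complex IV, was at 5403, 4044 and 4525 in T143, against 2005 and 1633 in T138 and 3602, 924 and 2307 in WT, and missed the threshold in both (1.35 ± 0.45, adjusted p = 0.0614, and 1.23 ± 0.40, adjusted p = 0.0543). Of 48 assembly factors 3 were higher against T138 and 0 lower (median 0.15), and 4 were higher and 1 lower against WT (0.24). The shares that were higher, 6.25 and 8.33%, lie below the 10.8 and 11.7% of all genes. Among them Lrpprc, which stabilises mitochondrial mRNA, rose by 0.77 ± 0.17 against T138 and Coa5 by 0.55 ± 0.14, while Sdhaf1, an assembly factor of complex II, was lower than in WT (-1.03 ± 0.33). In T138 against WT 1 assembly factor was higher, the copper chaperone Cox17 (1.07 ± 0.24).

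Carriers and import genes of the mitochondrial membranes were called more often than all genes against T138, and import genes less often against WT, differences that were not tested. Of 9 carriers 3 were higher and 0 lower against T138 (33.3%, against 10.8% of all genes higher; median 0.96), and 2 were higher and 0 lower against WT (22.2%, against 11.7%). Slc25a5, which exchanges ADP for ATP, was at 2504, 2283 and 2356 in T143, against 1038 and 842 in T138 and 1550, 908 and 1582 in WT, and rose by 1.35 ± 0.23 and 0.86 ± 0.21. The outer membrane channel genes Vdac1 (0.96 ± 0.18) and Vdac3 (1.68 ± 0.38) rose against T138. Of 21 import and chaperone genes 7 were higher and 0 lower against T138 (33.3%, median 0.79), and 2 were higher and 0 lower against WT (9.52%). The chaperonin Hspd1 was at 1228, 1366 and 1097 in T143, against 528 and 603 in T138 and 1101, 1052 and 1142 in WT, and thus rose against T138 (1.12 ± 0.16, adjusted p = 0.00142) and did not pass against WT (0.16 ± 0.15, adjusted p = 0.473). Hspd1 was one of the 2 import genes lower in T138 than in WT (-0.96 ± 0.16, adjusted p = 0.0045). The other, Timm8a1, was at 0 in both T138 libraries, against 38.6, 7.45 and 24.3 in WT. Tomm22, an import receptor, rose by 1.11 ± 0.20 and 0.82 ± 0.18.

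The tricarboxylic acid cycle, which supplies NADH and succinate, was mixed. Of 16 genes 3 were higher (18.8%) and 1 lower in T143 than in T138 (median 0.17), and 2 were higher (12.5%) and 1 lower than in WT (0.21). Dld, a subunit shared by several dehydrogenases, rose by 0.54 ± 0.14 and 0.40 ± 0.13. Suclg1, of succinyl-CoA ligase, rose against T138 by 0.86 ± 0.25. Idh3b, a subunit of isocitrate dehydrogenase, fell by 0.61 and 0.41 on the log2 scale (SE 0.14 and 0.12). Idh3a, another subunit of that enzyme, was higher than in WT both in T143 (0.57 ± 0.17) and in T138 (0.68 ± 0.19).

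Ribosomal protein genes, whose transcripts are also short as a rule, were counted beside the chain genes. Of 77 mitochondrial ribosomal proteins 6 were higher and 0 lower against T138 (median 0.52), and 7 were higher and 0 lower against WT (0.38). These shares, 7.79 and 9.09%, lie below the 10.8 and 11.7% of all genes that were higher. Of 80 cytosolic ribosomal proteins 29 were higher and 1 lower against T138 (1.06), and 17 were higher and 2 lower against WT (0.48), that is, 36.2 and 21.2% higher. Mrpl20, for example, was at 681, 672 and 692 in T143, against 328 and 301 in T138 and 435, 344 and 470 in WT (1.11 ± 0.21 against T138, adjusted p = 0.00467).

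Genes of factors that control mitochondrial biogenesis went both ways. Of 17 tested, 1 was higher and 2 (11.8%) were lower in T143 than in T138 (median -0.07), against 10.2% of all genes lower, and 0 were higher and 3 (17.6%) lower than in WT (-0.38), against 12.1%. Esrra, which encodes the nuclear receptor whose ERR motif was searched above, was at 559, 629 and 584 in T143, against 1030 and 946 in T138 and 568, 593 and 657 in WT. It fell against T138 (-0.74 ± 0.17, adjusted p = 0.0127) and was higher in T138 than in WT (0.71 ± 0.17, adjusted p = 0.0246). Myc, a growth regulator that also acts on mitochondrial genes, was at 1286, 1780 and 1498 in T143, against 1008 and 875 in T138 and 2643, 2538 and 3008 in WT. It thus rose against T138 (0.68 ± 0.17) and fell against WT (-0.85 ± 0.15, adjusted p = 0.00323), and in T138 it was lower than in WT (-1.53 ± 0.17). Polg, the polymerase of mitochondrial DNA, fell against both (-0.54 ± 0.13 and -0.65 ± 0.11), and Peo1, its helicase, fell against WT (-0.70 ± 0.18). Nrf1 changed by -0.07 ± 0.18 and 0.14 ± 0.16 and Gabpa by 0.45 ± 0.16 and 0.41 ± 0.14, and neither passed. Ppargc1a, the inducible coactivator of these factors, was at 0 in all T143 and T138 libraries, against 4.13, 1.06 and 4.56 in WT, which is near the limit of detection.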

How the data were processed

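Stranded messenger RNA libraries of 3 T143, 2 T138 and 3 WT samples were analysed, grouped by title. The deposited unit is a signal, that is, read counts per gene scaled by the authors with 1 factor per library to a common sum of 15.59 M. This follows from the values, since whole reads were recovered for 100% of them (tolerance 0.01). Per the submitters' processing notes, the build mm10 and the tools HOMER 4.8, STAR 2.5.2b, CASAVA 1.8.2 and edgeR were used, without stated roles. How strand and reads with several matches were counted is not given.

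log2(value + 1) was fitted with limma 3.58.1 (R 4.3.3; empirical Bayes with trend and robust fitting) over all 8 libraries with group means. Genes were kept at values of 1 or more in 2 or more libraries (15547 of 24453). The procedure was tested on simulated data. On this scale changes of low genes are understated. Members, lists and rules were chosen with earlier results of these data known. Named were, per comparison and complex, up to 4 called members with the smallest p, members called against most of their complex, isoform sets, core subunits, the highest and lowest per kilobase, and up to 3 called genes per list; other genes named, such as Atp5e, Cox5b and Nrf1, were added after their values were seen.

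Alternatives were other pseudocounts (8), filters (none, or 30), scalings (TMM, quantile, median centring), edgeR 4.0.16, DESeq2 1.42.0 and limma-voom on the recovered reads, a replicate block, a covariate and left-out libraries. Positions are from RefSeq (GRCm38) and transcript lengths from GENCODE (82 of 82 members for both). Values of 1 called member of complex I are not reported here.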

Additional observations from a re-analysis of the deposited data

How the results depend on the processing

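No member called in T143 against T138 or against WT changed direction in any alternative. Of the counts (T143 against T138 25, T138 against WT 0, T143 against WT 28), those that moved by over 1.5 times are as follows. The neutrophil covariate gave 13 and, against WT, 0 calls. Leaving out the 2 libraries with deviating source names gave 14, 1 and 17, and leaving out those with most neutrophil transcripts gave 5 for T143 against T138 and 4 for T143 against WT. Without the 2 libraries with deviating source names the shares of members called were 17.9, 1.28 and 21.8%. Of all genes 18.2, 9.16 and 18.7% were called there, and 9.96, 5.33 and 10.4% were higher. Median centring gave 14 for T143 against WT (17.9%, against 22.9% of all genes called and 9.02% higher). It gave 1 when WT replicate 2 was also left out (1.28%, against 16.8 and 6.98%), a setting chosen after seeing the data. For T138 against WT a minimum value of 30 gave 1 call (1.39%, against 13.4% of all genes) and DESeq2 gave 2 (2.56%, against 14.6%). Leaving out 1 library at a time gave 4 to 39, 0 to 7 and 13 to 38 calls. The cause of these shifts was not tested, except that fewer libraries also give fewer degrees of freedom. Quantile normalization moved the median of all genes to 0.014 and -0.078, against 0.152 and 0.053, for T143 against T138 and WT.

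With the replicate block the counts were 27, 0 and 37 (34.6, 0 and 47.4%, against 20.0, 11.6 and 25.3% of all genes called). Same-numbered libraries deviated together with correlations of -0.062 to 0.055, so the numbers were not taken to pair the samples.

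Depth limits the low members: per library Cox6a2 had 0 to 8 reads, Ndufa4l2 0 to 2, Cox7a1 0 to 22 and Ndufs5 0 to 18. T138 has 2 libraries, and without either of them the lone one is assumed to vary like the other groups.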
